A study of Drosophila melanogaster with 4 samples.

Results

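The Eip75B locus lies on chromosome arm 3L of Drosophila melanogaster, and its Groucho-bound sites were taken from a peak list of the chromatin of white prepupae. The locus was defined as the window from 17940000 to 18065000 of 3L (FlyBase release 5), a stretch of 0.125 Mb, and a peak belonged to it when its centre lay there. This gave 50 peaks, of 2565 on 3L and 11165 in the list. The assay was ChIP-seq, in which DNA bound by a protein is pulled down with an antibody and sequenced, with 2 libraries of Groucho ChIP and 2 of input DNA. Both groups came from white prepupae of the strain Y cn bw sp, and the labels name no tissue and no treatment. The labels give all 4 libraries 1 genotype. Its first set of alleles is y[1] with oc[R3.2], its next set Gr22b[1], Gr22d[1] and cn[1] followed by CG33964[R4.2], bw[1] and sp[1], and its last set LysC[1], lab[R4.2] and MstProx[1], then GstD5[1] and Rh6[1]. The ChIP libraries were made with the rabbit polyclonal antibody KW0:GRO, raised against a stretch of the Groucho protein. A single deposited table gives a position and a score for each peak. Since it keeps the libraries together, neither their spread nor their depth is known. The window was chosen with this list in view. Numbers of peaks, scores and ranks are therefore given as a description, with no test.

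Eip75B encodes E75, a nuclear receptor that binds heme and is related to the vertebrate Rev-erb receptors. It is one of the early genes switched on by the steroid hormone ecdysone, whose pulse at the end of larval life starts metamorphosis, the stage that white prepupae have just entered. The gene has several promoters spread over a long transcription unit, whose transcripts share their last exons, and one of its isoforms binds the nuclear receptor Hr3 and holds back activation by it. Groucho, which has no DNA-binding domain, is recruited by DNA-binding repressors, Hairy among them, and helps them to silence transcription. The gene table used for names (assembly release 6) lists Eip75B with 7 transcripts, and it places 4 other genes inside it. These are the protein-coding genes CG32192 and CG42393 and the long non-coding RNA genes lncRNA:CR45921 and lncRNA:CR45922. Before it on the arm come Wdr92, CG5290, lncRNA:CR43174 and lncRNA:CR45393, and after it CG44006, CG44005 and CG44004. The peaks are on release 5, so they were not assigned to exons, introns, promoters or to any of these genes, and no sequence of the sites was read.

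Groucho sites were dense in the first 75 kb of the Eip75B window and fewer in the last 50 kb. The first 75 kb held 42 of the 50 peaks (84% of them), 89.8% of the bases under peaks and 80.6% of the summed score. The last 50 kb held 8 peaks, 10.2% of the bases and 19.4% of the summed score. Over the whole window peaks covered 32335 bp, or 25.9% of the length. In consecutive parts of 25 kb, the window held 13, 14, 15, 5 and 3 peaks from start to end. Peaks covered 41%, 40.5% and 34.7% of the first 3 parts, against 6.95% and 6.3% of the last 2. The last 50 kb, at 6.63% covered, were still above the median of 5.03% in other windows of 3L. Those windows have the length of the whole Eip75B window, so the lengths compared differ. The dense part was itself uneven, with 1 peak each at 5 to 10 kb and 35 to 40 kb from the start and none at 70 to 75 kb.

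**Figure D1:**
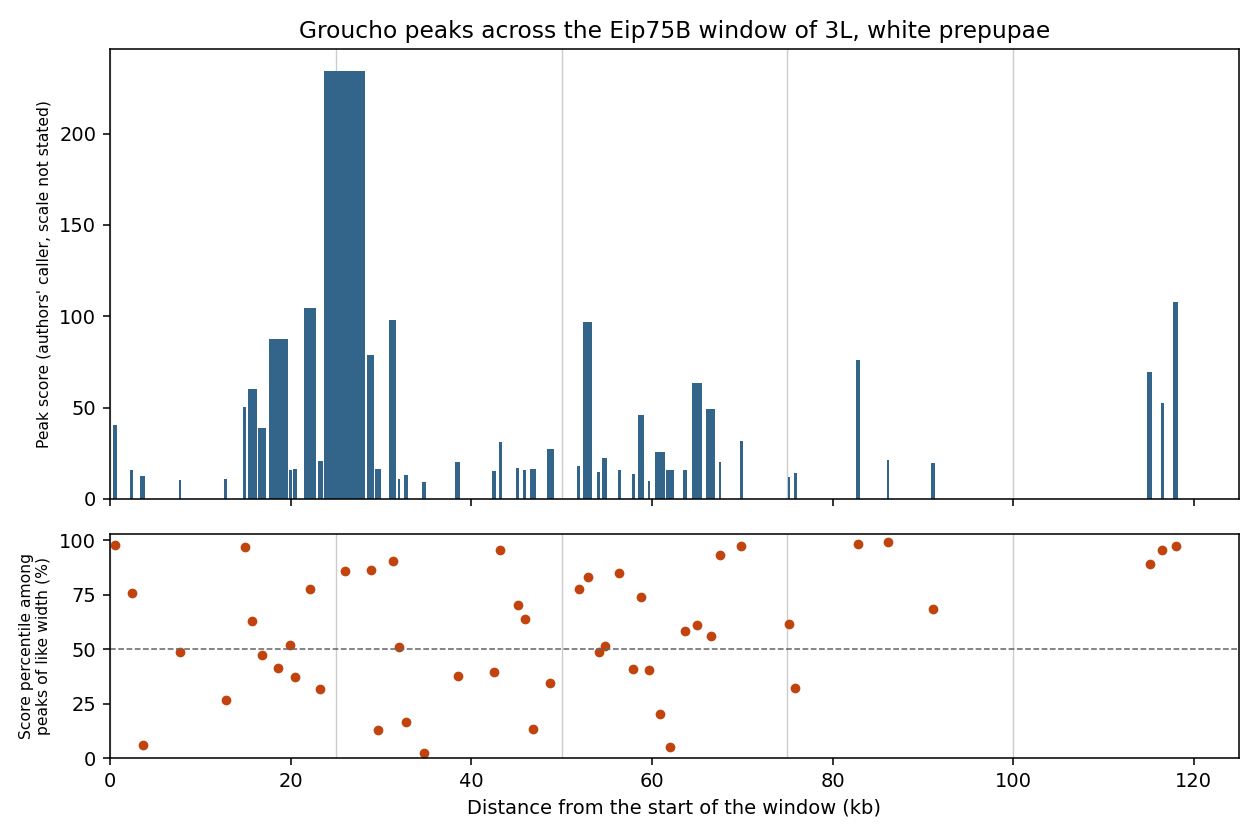
Upper panel, the 50 Groucho peaks of the Eip75B window, each drawn to scale from its start to its end, by distance from the window's start (kb) and by the score of the authors' caller (scale not stated). Lower panel, the percentile of each score among all peaks of the list whose width is within 10% of its own, with a dashed line at 50. A block around 15 to 33 kb holds the highest score (234), the peaks run on to about 70 kb, and 3 peaks near 115 to 118 kb stand apart behind a gap of 23.5 kb.

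The score of a peak is the number that the authors' MACS run gave it. Scores in the window ran from 9.41 to 234, with a median of 20.2 and quartiles of 15.7 and 50.2. The 95% order-statistic interval of that median was 16.0 to 31.8 (n = 50 peaks). It treats the peaks as independent draws, which neighbouring peaks of 1 list need not be, and holds no spread of libraries. The other 2515 peaks of 3L had a median of 18.0 and quartiles of 12.3 and 35.5. The Eip75B peaks were thus many rather than exceptionally high, though both their quartiles lay above those of the other peaks. Scores above 100 belonged to 3 of the 50 (6%, exact binomial 95% interval 1.25% to 16.5%, counting error only), beside 6.81% of all peaks of the list. Widths above 2 kb belonged to 2 of the 50, beside 2.53% of the list. Both backgrounds come from the contrast that defined the window. Below the lower quartile of the list (12.3) lay 6 of the 50 peaks, beside 2790 of all 11165. Above its upper quartile (36.9) lay 17 of the 50, beside 2775 of all 11165.

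The dominant feature was a nearly continuous block in the lower part of the window. Between 17952652 and 17974992, 16 peaks followed each other with less than 2 kb between edges. They covered 69.1% of 22.3 kb and carried 45.1% of the window's summed score. Of the 10 highest-scoring peaks of the window, 5 were in this block, and so were 3 of the 5 widest.

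At the centre of the block stood the strongest and widest peak of the locus, at 17963722 to 17968244. It scored 234 over 4523 bp, which ranked 97th by score in the list and 30th on 3L. Only 14 other peaks of the list had like width, with a median score of 154, and it scored above 85.7% of them. Its 4523 bp alone made 14% of the bases under peaks in the window, and its score 12.2% of the summed score. Its flanks were occupied as well. The peak on its lower side, at 17961484 to 17962780, scored 105 over 1297 bp, and a low peak of score 20.6 lay between the pair. On its upper side, 242 bp away, a peak at 17968487 to 17969229 scored 78.7. A peak at 17970928 to 17971681 scored 97.9 over only 754 bp, above 90.4% of peaks of like width. Towards the lower end of the block, the peak at 17957612 to 17959688 was the second-widest of the locus, with 2077 bp and a score of 87.5. That score was below those of most peaks of like width (41.5th percentile).

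High and low peaks stood side by side at very short distances. In the whole window, 11 neighbouring pairs were less than 250 bp apart, and in 6 of them the higher score was more than 2 times the lower. The same share was not computed for close pairs elsewhere in the list, so it is not given as particular to this locus. The largest ratio was 11.4, between the peak of score 234 and its lower neighbour, 82 bp away. The closest pair of all, at 17959785 to 17960161 and 17960221 to 17960682, was separated by 59 bp, and its scores of 15.9 and 16.3 were nearly equal. How far the caller divided broader enrichment into such pairs was not tested.

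When peaks less than 1 kb apart were joined, 14 peaks of this block became 1 region of 18.3 kb, from 17954713 to 17973051, of which 79.9% was under peaks. At that joining distance it was the longest of 7497 joined regions of the list, just ahead of one of 18.2 kb, and it held the most peaks, against 13 in the next. This place depended on the joining distance, and the comparison was added with the result for the locus in view. With joining at 250 bp, 500 bp, 2 kb and 5 kb the longest region of the window ranked 3rd, 9th, 6th and 4th in the list by length. The window as a whole became 20 regions at 1 kb, 11 of them single peaks.

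A second stretch, from 17991762 to 18007706, had nearly as many peaks and lower scores, though not lower for their width. It held 14 peaks in 15.9 kb, covered 52.3% of that length and carried 22.2% of the summed score. Among peaks of like width the median percentile was 57.1 here and 49.2 in the block of 16 peaks. Above the median for their width were 9 of the 14 peaks here and 8 of the 16 there. The highest peak of the second stretch, at 17992402 to 17993384, scored 96.6. Farther along, a peak at 18004467 to 18005592 scored 63.3 over 1126 bp, and one at 18000374 to 18001412 reached 1039 bp with a score of only 25.8 (20.4th percentile for its width). The rest ranged from 9.68 to 49.4. This stretch was the most crowded of the locus: 6 of its peaks had 14 others within 10 kb, the highest number for any peak of 3L, where 6 peaks in all reached it. Between both stretches lay 7 peaks, of which 6 stood at 17982302 to 17989122 with scores of 15.2 to 30.9 and 1 stood alone at 17978207 to 17978782 with 20.2.

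The last 50 kb of the window held few peaks, several of which scored high for their width. Its 8 peaks were 236 to 627 bp wide, with a median of 418 bp against 443 bp on 3L, and 3 of them were among the 10 highest scores of the locus. Compared with peaks of the list whose width was within 10% of their own, 7 of the 8 scored above the median and 4 scored above the 90th percentile. In the first 75 kb, 23 of 42 were above the median and 6 above the 90th percentile. Over the whole window 10 of 50 were above the 90th percentile, beside 9.89% of all peaks of the list.

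The farthest group consisted of 3 peaks within 3.47 kb, at 18054791 to 18055417, 18056316 to 18056732 and 18057728 to 18058258. Their scores were 69.6, 52.6 and 108, the last being the second-highest of the locus on a peak of 531 bp. Among peaks of like width these were the 88.9th, 95.5th and 97.6th percentiles. This group had no other peak within 10 kb, and on its lower side came the longest peak-free stretch of the window, 23.5 kb from 18031313 to 18054790. Of the 2564 gaps on 3L, 213 were longer. Peak-free means here that the caller reported nothing, and at unknown depth this does not show that Groucho was absent.

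Between the dense part and that gap lay 5 scattered peaks, of which the first 2, at 18015067 to 18015310 and 18015695 to 18016113, scored 12.0 and 13.9. The peak at 18022556 to 18023009 scored 76.2 over 454 bp (98.4th percentile for its width). The next, at 18026012 to 18026247, scored 21.4 over 236 bp, the highest percentile for width in the locus (99.1). The most isolated peak, at 18030928 to 18031312, scored 19.8, and its nearest neighbour by centre was 4991 bp away. The gaps before and among them, of 5.03 kb, 6.44 kb and 4.68 kb, were 3 of the 5 longest of the window. Of the other two, one was the gap of 23.5 kb and one, of 4.76 kb, lay near the lower end between peaks of score 10.1 and 11.1.

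**Figure D2:**
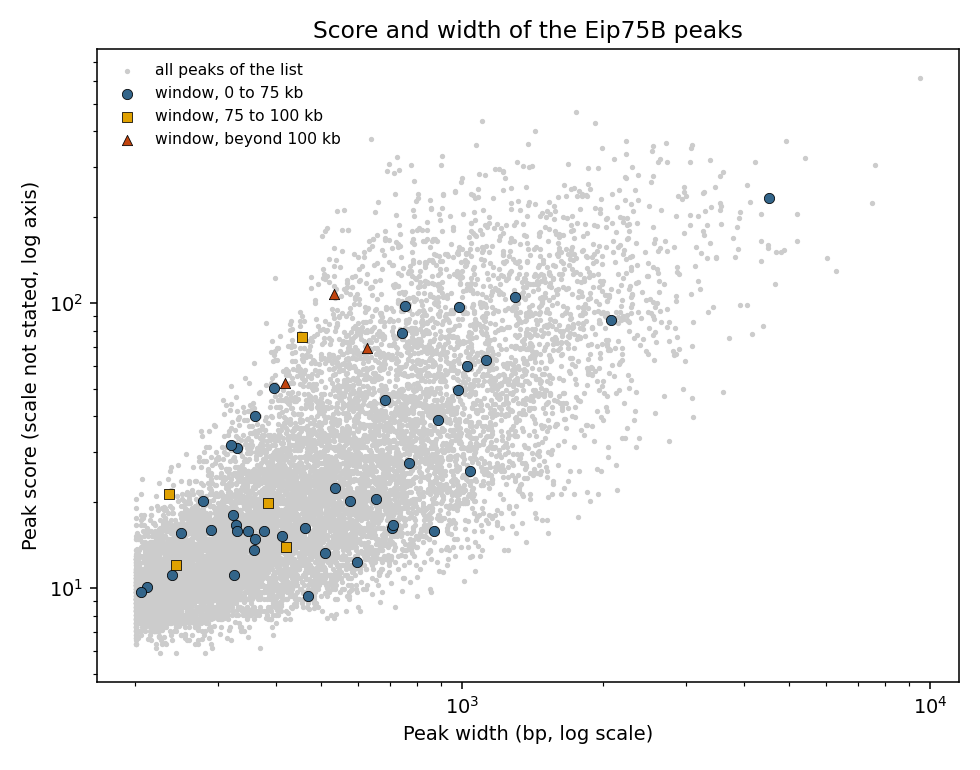
Score against width on log axes for all 11165 peaks of the list (grey) and the 50 peaks of the Eip75B window, by their distance from the window's start. The 3 peaks beyond 100 kb (triangles) lie in the upper part of the cloud at widths of 417 to 627 bp, whereas peaks of the first 75 kb (circles) spread through it.

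Score and width were related within the locus, as a description of peaks that share one caller and the same libraries. Spearman's rho was 0.613 and Pearson's r 0.823 over the 50 peaks, beside 0.766 and 0.669 over all peaks of 3L. Without the widest peak they were 0.588 and 0.597, so the high Pearson value rested on that peak. The widths themselves were ordinary, with a median of 458 bp in the window and 443 bp on 3L.

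Neighbouring Eip75B peaks were close to each other, which is the property behind the choice of the window. The median distance between neighbouring centres was 1486 bp (95% order-statistic interval 1208 to 1842, with distances treated as independent), against 2957 bp on 3L. Less than 1 kb separated 30 of the 49 neighbouring pairs (61.2%), against 34.6% on 3L. At least 4 others within 10 kb were found for 43 of the 50 peaks (86%), beside 54.3% of the peaks of 3L. The 7 exceptions were 2 peaks at the lower end and 5 in the last 50 kb.

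Set beside the other windows of its size on 3L, the Eip75B window was second by number of peaks. The arm was divided into 194 windows of its size in step with it. The other 193 held a median of 12 peaks (quartiles 6 and 19), 15 of them held none, and 1 held 40 or more. That window, at 690001 to 815000, had 51 peaks, and the window next in number had 37. The Eip75B window held 4.17 times the median number. That median includes the empty windows, most of which lay from 23065001 to the end of the arm. The Eip75B window was second by covered bases too, with 25.9% against 33% in the window at 690001 to 815000 and a median of 5.03%. By summed score it came first, with 1921 against at most 1835, which the window at 10690001 to 10815000 reached. By median score it was 38th of the 114 windows with at least 10 peaks. Other windows lie where the division happens to put them, and the Eip75B window was placed on a known dense locus. When the others were instead placed without overlap where each held the most peaks, 1 of them (660946 to 785946) held more, with 54, and the next held 45. Of 4799 overlapping windows started every 5 kb, 13 held more, and all 13 lay between 660001 and 850000.

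**Figure D3:**
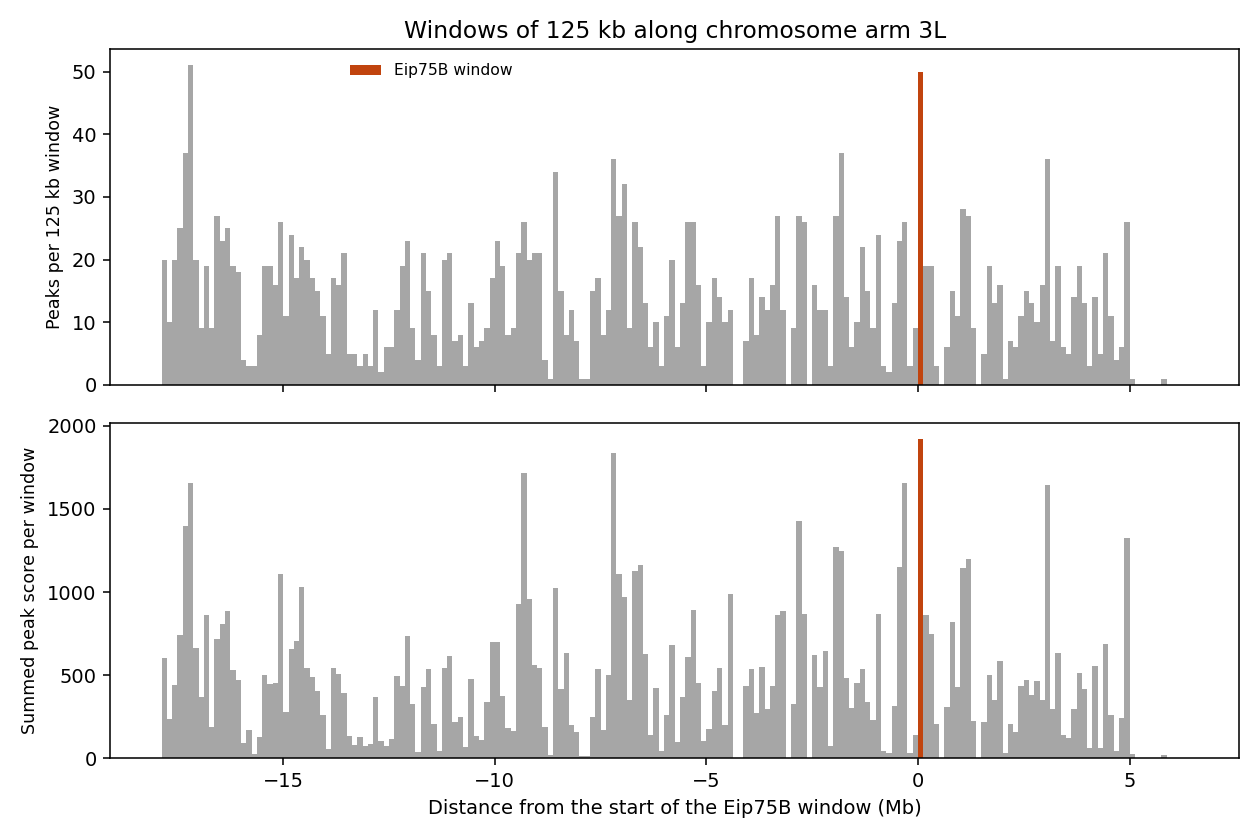
Number of peaks (upper panel) and summed peak score (lower panel) in 194 windows of 0.125 Mb along 3L, by distance from the start of the Eip75B window (Mb). The Eip75B window (orange) has 50 peaks, next to 51 in the fullest window, and the highest summed score, 1921.

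Among shorter stretches, the densest part of the locus led the arm at 25 kb and 50 kb but not at 10 kb. Its fullest 25 kb, from the peak starting at 17982302, held 19 peaks, and no 25 kb elsewhere on 3L held more than 17. Its fullest 50 kb held 33 peaks against at most 30 elsewhere. At 10 kb its maximum of 9 was equalled elsewhere, and 6 stretches of the arm without overlap reached it, this locus included.

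In most measures of layout and score the Eip75B window lay within the range of the other crowded windows of 3L. The 10 windows with the most peaks held from 27 to 51, and 6 windows of the arm were level at 27, of which the one nearest the start of the arm was taken. The Eip75B window had 38% of its peaks in its densest 25 kb, and the 9 others had 30.6% to 48.1%. How peaks split between the first 75 kb and the last 50 kb was not computed for the others. The split is therefore not given as particular to this locus. The longest peak-free stretch of the Eip75B window, 23.5 kb, compares with 8.33 to 34.9 kb in the others. Its median distance between neighbouring centres, 1486 bp, lay within their range of 1388 to 2494.5 bp. Its share of peaks scoring above 100 was 6%, against 2.94% to 13.9%, and its highest score of 234 ranked 4th of the 10, where the window at 10690001 to 10815000 reached 312. The fullest window differed in layout. At 690001 to 815000 no peak-free stretch exceeded 8.33 kb, 4 peaks were wider than 2 kb against 2 in the Eip75B window, and the median score was 16.3 against 20.2.

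**Figure D4:**
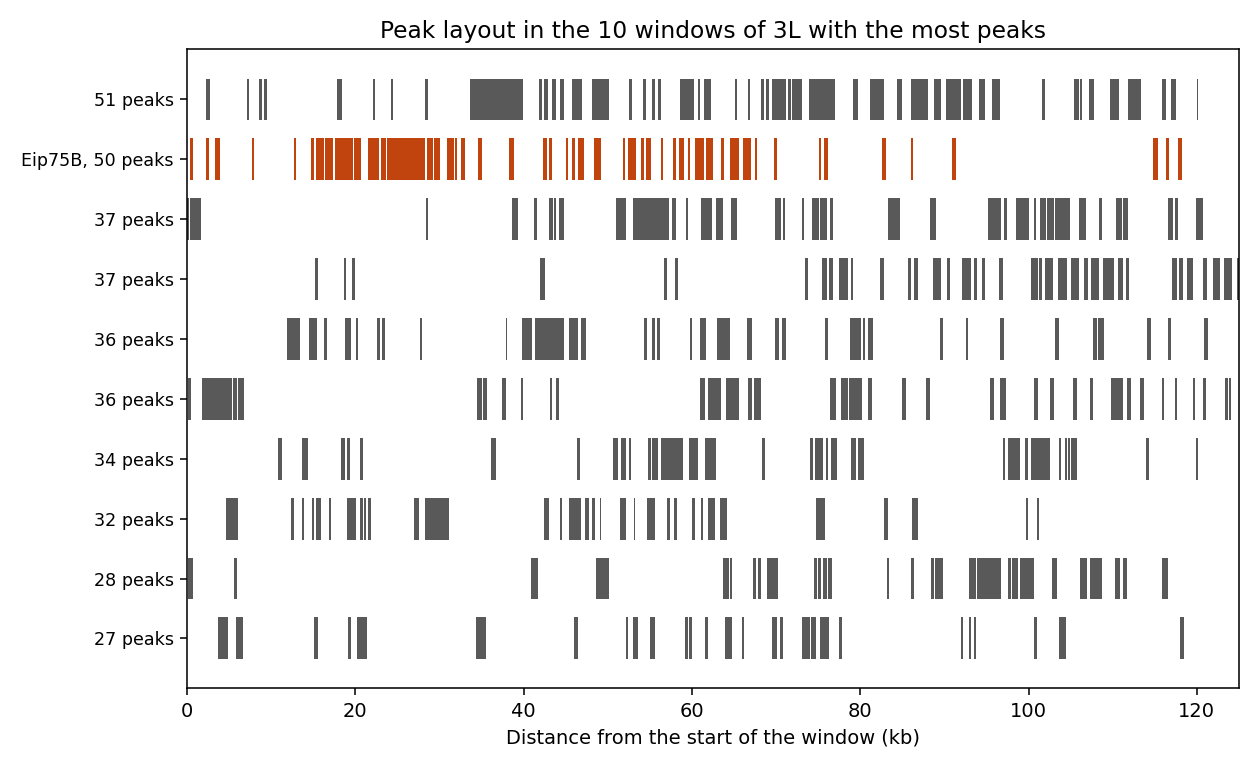
Peak positions in the 10 windows of 0.125 Mb of 3L with the most peaks, each peak drawn from start to end by distance from its window's start (kb), with the number of peaks at the left. The Eip75B window (orange) has 42 of its 50 peaks in its first 75 kb and 8 beyond, while the window of 51 peaks has no peak-free stretch above 8.33 kb.

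Both borders of the window lay in peak-free stretches, and the lower one came just before the first peak inside. This first peak, at 17940378 to 17940737, scored 40.3 over 360 bp (97.9th percentile for its width), and its centre was 0.557 kb from the lower border. The second, at 17942254 to 17942544, scored 16.0. The nearest peaks outside on that side, at 17918613 to 17919051 and 17907196 to 17907457, scored 11.9 and 17.3 and lay 21.2 and 32.7 kb from the border. On the upper side the last peak inside lay 7.01 kb from the border, and the nearest outside, at 18070808 to 18071153 and 18073038 to 18073315, lay 5.98 and 8.18 kb beyond it with scores of 22.8 and 17.3. The next window of the same size below held 9 peaks with a median score of 13.0, and the one above held 19 with a median of 19.9 and a highest score of 226.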

How the data were processed

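Groucho ChIP and input DNA libraries (2 each, grouped by their titles) are represented by 1 deposited peak list. Positions refer to FlyBase release 5 and peaks were made with MACS, per the file headers. MACS2, BWA, the build BDGP5 and CASAVA 1.7.0.2 and 1.7.0.3 are named in the submitters' processing notes. The calling threshold, read filters and any pooling of libraries were not stated in these sources. Each score is the authors' deposited value, of unstated scale, and served to describe and rank peaks of this list alone.

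From it were computed members by centre, gaps between edges, runs (gaps under 2 kb), bases covered, score percentiles among peaks of width within 10%, and windows of 0.125 Mb up to the last peak of 3L (24.4 Mb). Peaks named are the 10 of highest score, the 5 widest, those at the borders and around the longest gaps, the most isolated and the closest pair. Other peaks named for their place in a stretch were chosen after their values were seen. Members, window and settings were chosen with earlier results of these data known. Counting and joining were tested on 20 simulated lists. Eip75B was named by the definition of the window, and its neighbours by the gene table of release 6, whose coordinates were not used. Python 3.11.15, numpy 2.4.6, pandas 2.3.3, scipy 1.17.1 and matplotlib 3.10.9 were used.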

Additional observations from a re-analysis of the deposited data

How the results depend on the processing

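Of 29 alternatives to the values of the Eip75B window, 12 left them the same and 17 moved them, where a count or rank was taken as the same within 1.5 times, and a share or median within its own 95% interval. For the covered share that interval treats each base as independent and is narrow, so its 3 moves are all by less than 1.5 times. For the share scoring above 100 (6%) the interval is wide, 1.25% to 16.5%. Its alternatives therefore all counted as the same. They were 12% for scores in the top 10% of the list (6 of 50 peaks), a limit that 10% of the list passes by construction. After joining at 1 kb the share was 10% (2 of 20 regions), beside 9.08% of the joined regions of the list. With 10 kb more on either side it was 5.77%, beside 6.81% of all peaks of the list. The number of peaks was 27 in the upper 50% of scores, 20 after joining at 1 kb and 25 among peaks wider than the median. The covered share was 22.7% with 10 kb more on either side, 18.4% with the highest-scoring 50% and 35.5% after joining at 1 kb. By number of peaks the window ranked 14th against windows every 5 kb, 1st with the highest-scoring 50% and 5th after joining at 1 kb, and it ranked 1st by summed score. Its rank was 3 over the windows of the 5 large arms. The median score was 38.8 among peaks wider than the median, where the list has 34.6. The median distance was 2773 bp with the highest-scoring 50% and 4676 bp after joining at 1 kb. The longest joined region ranked 3, 9, 6 and 4 by length in the list with joining at 250 bp, 500 bp, 2 kb and 5 kb, which were chosen after seeing the data. Fewer or fused peaks follow from the construction of most of these settings. Counting any overlap with the window gave the same 50 peaks, and 10 kb more on either side gave 52. Where these settings left a count, median or share of peaks the same, that too follows largely from their construction. No paired analysis was possible because all libraries enter 1 list, and no library could be left out for that reason. Read depth is unknown.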
